A study of Mus musculus with 43 samples.

Results

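The sodium pump (Na,K-ATPase) is built from a catalytic alpha subunit, a beta subunit and, in many tissues, a small FXYD protein. The genes described here are those for its beta subunits Atp1b1, Atp1b2 and Atp1b3, and for its FXYD regulators Fxyd1, Fxyd2, Fxyd4 and Fxyd5. They were taken by symbol from the authors' table of gene expression, where 7 of 7 were found among 54532 genes. The rule uses no measured value, but it was written with earlier results of these data known. The genes of the catalytic alpha subunits are not among them. Expression was measured by RNA-seq of proximal tubule segments S1, S2 and S3, dissected by hand from kidneys of female C57BL/6 mice aged 6 to 8 weeks, with 2 to 5 tubules per sample. The animals carried no labelled mutation and no treatment is labelled for any group. The labels list 6 S1, 6 S2 and 7 S3 libraries. The table holds 1 TPM value (a level scaled to gene length and to the total of its column) per gene and segment, so no difference below has a replicate check, and how deeply the libraries were read is not known here. If title numbers stand for animals, S1 came from 2 animals, S2 from 3 and S3 from 4, with no number common to S1 and S2. The labels do not state this reading.

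In each cycle the sodium pump moves sodium out of the cell and potassium in, using the energy of ATP. In the proximal tubule it sits in the basolateral membrane and keeps cell sodium low, and that gradient drives the uptake of glucose, amino acids, phosphate and bicarbonate from the filtrate. The beta subunit is a glycosylated protein with a single membrane span that the alpha subunit needs to fold and reach the cell surface. FXYD proteins are short single-span membrane proteins that bind the assembled pump and adjust its affinity for sodium or potassium or its turnover.

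Across the tubule the 2 beta subunit genes compared kept nearly level deposited values, while the FXYD genes differed more. Atp1b2 was too low to compare. Atp1b1 supplied most beta transcript in each segment and varied 1.15-fold between its highest and lowest. Fxyd2 supplied nearly all FXYD transcript and was 2.04-fold higher in S1 than in S3, a difference that fell below 2-fold under some alternative scalings. Fxyd4 was 35.9-fold higher in S1 than in S3. Fxyd5 and Fxyd1 were highest in S2, at low levels. The summed markers of endothelial, immune, and mural and stromal cells were also highest in S2.

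The promoters of 4 of these genes are shown because they bracket the patterns found: a nearly level gene (Atp1b1), the gene with the steepest gradient (Fxyd4), and a pair of genes near each other that were both highest in S2 (Fxyd5 and Fxyd1). Each is the 250 bases before a start annotated by RefSeq in GRCm38.p6, written 5′ to 3′ on the gene's own strand. The windows of Fxyd4 and Fxyd1 lie within the annotated span of their own gene, so the starts they precede are internal to it. Capitals mark the GC box, GGGCGG on either strand.
Atp1b1, chr1:164458356-164458605, minus strand: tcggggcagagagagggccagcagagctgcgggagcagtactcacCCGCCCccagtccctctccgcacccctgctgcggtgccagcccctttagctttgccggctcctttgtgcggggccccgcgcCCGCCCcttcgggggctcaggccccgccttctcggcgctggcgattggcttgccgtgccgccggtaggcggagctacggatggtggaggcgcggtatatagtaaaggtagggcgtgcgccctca
Fxyd4, chr6:117937336-117937585, minus strand: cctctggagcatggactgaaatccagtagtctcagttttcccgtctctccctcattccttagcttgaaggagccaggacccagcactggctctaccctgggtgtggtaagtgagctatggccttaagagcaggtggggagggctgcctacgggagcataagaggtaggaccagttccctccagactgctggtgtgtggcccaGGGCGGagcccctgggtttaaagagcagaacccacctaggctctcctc
Fxyd5, chr7:31042332-31042581, minus strand: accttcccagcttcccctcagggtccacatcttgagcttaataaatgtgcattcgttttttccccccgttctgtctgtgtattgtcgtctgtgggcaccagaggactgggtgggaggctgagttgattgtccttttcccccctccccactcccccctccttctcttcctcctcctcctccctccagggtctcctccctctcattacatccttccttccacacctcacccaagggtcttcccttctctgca
Fxyd1, chr7:31054854-31055103, minus strand: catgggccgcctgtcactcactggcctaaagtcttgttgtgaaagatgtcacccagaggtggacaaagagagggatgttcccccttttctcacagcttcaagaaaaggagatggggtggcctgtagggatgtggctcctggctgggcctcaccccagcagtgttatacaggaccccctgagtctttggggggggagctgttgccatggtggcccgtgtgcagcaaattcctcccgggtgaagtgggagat

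The search covered 3 motifs on both strands: the GC box GGGCGG, the TATA box TATAAA and the nuclear receptor half-site AGGTCA. None of these overlapped another in the sequences shown. Of 32851 windows of the same length before RefSeq starts, 32.7% held GGGCGG, 12.4% TATAAA and 14% AGGTCA. The Atp1b1 window held the GC box at 2 places and had a GC content of 70.4%. The Fxyd4 window held it at 1 place, 48 to 43 bases before the start, with a GC content of 58%. The windows of Fxyd5 and Fxyd1, with GC contents of 55.6% and 57.2%, held none of the 3 motifs. These matches are letters in a window and were not tested as binding sites.

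Atp1b1 encodes beta1, the main beta subunit of kidney epithelia. It spans chromosome 1, bases 164437099 to 164458355 (GRCm38.p6). Its level was 447.0 TPM in S1, 512.3 TPM in S2 and 464.0 TPM in S3, which placed it 296th, 238th and 301st among all genes in those columns. The 3 values lay close together. On the log2(TPM + 1) scale, which adds a pseudocount of 1 and is used for all differences here, S1 minus S2 was -0.20, S1 minus S3 -0.05 and S2 minus S3 0.14. The sign of the differences depended on how the columns were scaled, with S1 minus S2 between -0.30 and 0.52 over 8 alternatives. Here and below, alternatives that changed only the TPM filter leave a gene's difference unchanged by construction. Of the 16053 genes compared, those reaching 1 TPM in some segment, 7.79% spanned less than Atp1b1 between their highest and lowest segment. Reads from Nme7, which overlaps Atp1b1 in the annotation and stood at 58.2, 104.0 and 71.8 TPM along the tubule, may have been assigned to either gene, since the library protocol names no strand marking.

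Atp1b3 encodes beta3, a more widely expressed beta subunit, on chromosome 9 from 96332655 to 96364431. Its level was 72.5 TPM in S1, 60.3 TPM in S2 and 75.2 TPM in S3. It was lowest in S2, where Atp1b1 was highest. The differences were 0.26 (S1 minus S2), -0.05 (S1 minus S3) and -0.31 (S2 minus S3). Neither Atp1b1 nor Atp1b3 reached a 2-fold difference in any contrast under any of the 8 alternatives. Those that changed only the filter could not have moved them. Atp1b3 came to 0.96 for S1 minus S2 under 1 of the others. For comparison, a 2-fold span over the segments was found for 33.3% of all genes compared, and for 40.4% of the 1706 that reached 100 TPM somewhere.

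Atp1b2 encodes beta2, known as an adhesion molecule of glia, on chromosome 11 from 69599728 to 69605978. Its level was 0.1 TPM in S1, 0.6 TPM in S2 and 0.3 TPM in S3, below the minimum of 1 TPM, so it was not compared. Values are deposited to 1 decimal, and by this rounding alone the S2 value could be between 3.67-fold and 13-fold that in S1.

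TPM can be added across genes within a column. The 3 beta genes together came to 519.6 TPM in S1, 573.2 TPM in S2 and 539.5 TPM in S3. Atp1b1 made up 86.0% of this sum in S1, 89.4% of it in S2 and 86.0% in S3, and Atp1b3 14.0%, 10.5% and 13.9%. The Atp1b1 level was 6.17 times that of Atp1b3 in S1, 8.5 times in S2 and 6.17 times in S3. This order of the beta genes was thus the same in the 3 segments, with Atp1b1 first and Atp1b2 close to 0.

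**Figure D1:**
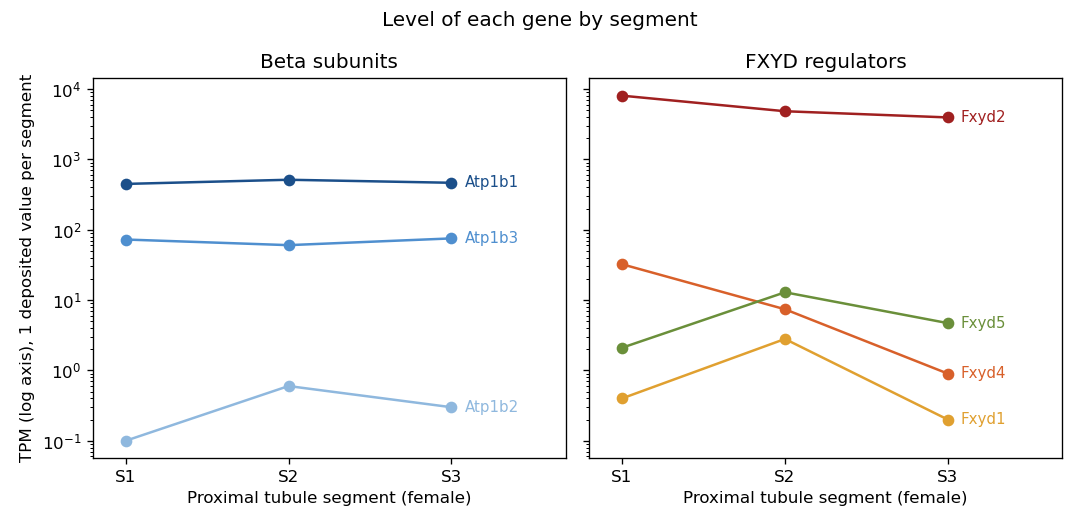
Level of each gene in TPM (log axis) in segments S1, S2 and S3 of the female proximal tubule, with beta subunits in the left panel and FXYD regulators in the right. Each point is the 1 deposited value for that segment, so there are no error bars. Atp1b1 stays between 447.0 and 512.3 TPM, while Fxyd4 goes down the tubule with 32.3, 7.4 and 0.9 TPM.

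Fxyd2 encodes the gamma subunit of the pump, which in mammalian kidney lowers the pump's affinity for sodium. Variants of the human gene cause renal magnesium wasting. The mouse gene lies on chromosome 9 from 45399709 to 45410278. Its level was 8026.5 TPM in S1, 4821.1 TPM in S2 and 3937.1 TPM in S3. The values went down along the tubule, and Fxyd2 was the 13th most abundant transcript in S1, the 20th in S2 and the 24th in S3. It took 0.803% of the S1 column's total, 0.482% of that of S2 and 0.394% of that of S3. The difference was 0.74 between S1 and S2, a ratio of 1.66, and 1.03 between S1 and S3, a ratio of 2.04. S2 minus S3 was 0.29. The 2-fold difference between S1 and S3 was lost under 3 of the 8 alternatives, which gave 0.74 with quantile normalization, 0.97 with median-of-ratios scaling and 0.9974 when Gpx3, Kap and the genes of mitochondrial DNA were left out of the totals. S1 was above both other segments under each alternative, whereas S2 minus S3 went as low as -0.23.

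The ratio of Fxyd2 to Atp1b1 does not depend on the total of a column. It was 18 in S1, against 9.41 in S2 and 8.49 in S3. Together the 4 FXYD genes were at 15.5 times the sum of the beta genes in S1, 8.45 times in S2 and 7.31 times in S3. Fxyd2 made up 99.6% of the FXYD sum in S1, 99.5% of it in S2 and 99.9% in S3. A ratio of transcripts says nothing of the number of protein subunits per pump, and Fxyd2 is a short transcript, for which TPM depends strongly on the length used.

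Fxyd4 encodes CHIF, the corticosteroid hormone-induced factor, which is known from the collecting duct and raises the pump's affinity for sodium. It lies on chromosome 6 from 117933558 to 117937714. Its level was 32.3 TPM in S1, 7.4 TPM in S2 and 0.9 TPM in S3. Of the 7 genes it had the steepest gradient, with a lower value at each step. S1 minus S2 was 1.99 (4.36-fold), S1 minus S3 4.13 (35.9-fold, or between 33.9-fold and 38.1-fold by the rounding of the deposited values) and S2 minus S3 2.14 (8.22-fold). Each difference was at least 2-fold under all 8 alternatives, over which S1 minus S3 was between 2.66 and 5.02. Those that changed only the filter could not move these differences. Of all genes compared, 97.8% had a smaller span. Fxyd2 was 248 times as abundant as Fxyd4 in S1, 652 times in S2, and 4370 times in S3.

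Since Fxyd4 is known from the collecting duct, markers of its principal cells were read beside it. Of the 7 listed, Aqp2, Scnn1b, Scnn1g, Hsd11b2 and Avpr2 were at or below 0.5 TPM in each segment, and 4 of these 5 were listed at 0 in S1, where Fxyd4 was highest. Aqp3, a basolateral water and glycerol channel, was at 28.3 TPM in S1, 5.2 TPM in S2 and 0.1 TPM in S3, the order of Fxyd4. Aqp4 went the other way, with 0.0 TPM in S1, 24.1 TPM in S2 and 67.9 TPM in S3. The list summed to 28.4 TPM in S1, 30.3 TPM in S2 and 68.4 TPM in S3.

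Fxyd5 encodes dysadherin, an FXYD protein with a long extracellular part that is known to alter cell adhesion and pump activity. It lies on chromosome 7 from 31032723 to 31042331. Its level was 2.1 TPM in S1, 12.9 TPM in S2 and 4.7 TPM in S3. S2 was the highest and S1 the lowest. The difference was -2.16 between S1 and S2, so S1 was at 0.163 times the S2 level, and -0.88 between S1 and S3. S2 minus S3 was 1.29, or 2.74-fold. The last fell below 2-fold at a pseudocount of 5, with 0.88, and under a median-of-ratios scaling from all genes above 0, with 0.82.

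Fxyd1 encodes phospholemman, the FXYD protein of heart and skeletal muscle, where its phosphorylation relieves inhibition of the pump. It lies on chromosome 7 from 31051678 to 31055873, 9346 bases from Fxyd5 with 1 annotated gene wholly between them. Another annotated gene, Gm38984, overlaps both Fxyd5 and Fxyd1, and its part in the reads of these 2 genes was not tested. Its level was 0.4 TPM in S1, 2.8 TPM in S2 and 0.2 TPM in S3. It reached the 1 TPM minimum through S2 alone. The difference was -1.44 for S1 minus S2 and 1.66 for S2 minus S3, where the ratio was 14, or between 11 and 19 by rounding. With a pseudocount of 5 these became -0.53 and 0.59, so whether so low a gene counted as 2-fold depended on the pseudocount. S1 minus S2 was also under 2-fold with quantile normalization, at -0.84.

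Among the FXYD genes other than Fxyd2, the shares differed along the tubule. They summed to 34.8 TPM in S1, 23.1 TPM in S2 and 5.8 TPM in S3. Fxyd4 made up 92.8% of this sum in S1, 32% of it in S2 and 15.5% in S3. Fxyd5 made up 6.03% in S1 but 55.8% in S2 and 81.0% in S3, so it ranked second among all FXYD genes here in S2 and S3, and Fxyd4 in S1. The larger share of Fxyd5 in S3 was not a higher level. Fxyd5 stood at 12.9 TPM in S2 and 4.7 TPM in S3, and Fxyd4 at 7.4 and 0.9 TPM. Fxyd1 made up 1.15%, 12.1% and 3.45%.

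**Figure D2:**
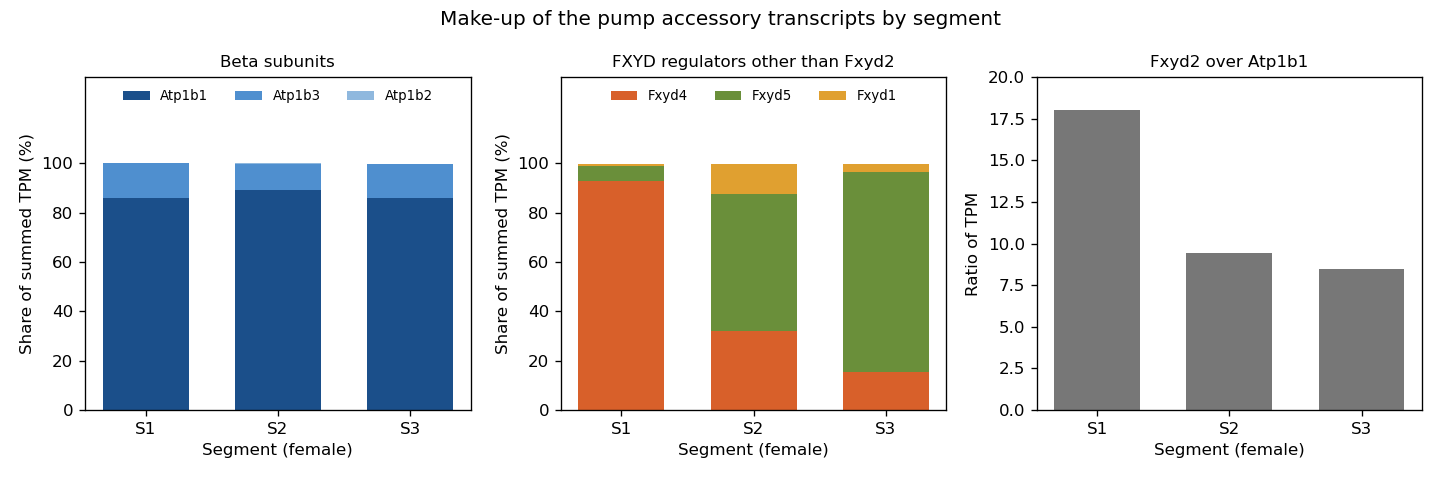
Left, share of each beta subunit gene in their summed TPM (percent). Middle, share of Fxyd4, Fxyd5 and Fxyd1 in their summed TPM (percent). Right, ratio of Fxyd2 to Atp1b1 TPM. Segments S1, S2 and S3 run along each axis, with 1 deposited value per segment and no error bars. The beta make-up is nearly constant, with Atp1b1 between 86.0% and 89.4%. In the middle panel Fxyd4 has the largest share in S1 and Fxyd5 in S2 and S3, of sums of 34.8, 23.1 and 5.8 TPM. The level of Fxyd5 itself is lower in S3 than in S2. The ratio is 18 in S1, against 9.41 in S2 and 8.49 in S3.

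Fxyd5, Fxyd1 and Atp1b2 were highest in S2, where the summed markers of endothelial, immune, and mural and stromal cells were highest. All 9 endothelial markers passed 2-fold on either side of S2, being lower in S1 and lower in S3. Their summed level was 74.5 TPM in S1, 689.9 TPM in S2 and 278.4 TPM in S3, and none was at 0. The 10 immune markers summed to 59.1 TPM in S1, 321.1 TPM in S2 and 98.8 TPM in S3, with 10 lower by 2-fold in S1 than in S2, 9 higher by 2-fold in S2 than in S3, and none at 0. Of the 9 mural and stromal markers, 6 were compared, of which 5 were lower by 2-fold in S1 than in S2 and as many were higher by 2-fold in S2 than in S3. All 6 reached the 1 TPM minimum through S2 alone. So did the immune markers Lyz2 (0.5, 9.2 and 0.7 TPM from S1 to S3) and Ptprc (0.5, 2.5 and 0.4 TPM). The immune, mural and stromal counts are therefore not independent of that minimum. The 9 mural and stromal markers summed to 2.8 TPM in S1, 22.4 TPM in S2 and 2.6 TPM in S3, with none at 0. Of all genes compared, 17.7% were lower by 2-fold in S1 than in S2 and 8.74% were higher in S2 than in S3.

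As a share of the S2 value, Fxyd5 stood at 16.3% in S1 and 36.4% in S3, and the endothelial sum at 10.8% and 40.4%. The immune sum stood at 18.4% and 30.8%, but 2 of its genes carried much of it. Cd74 was at 50.1, 192.7 and 37.8 TPM from S1 to S3, and Csf1r, highest in S3, at 0.5, 32.0 and 46.9 TPM. Fxyd1 stood at 14.3% in S1 and 7.14% in S3, and the mural and stromal sum at 12.5% and 11.6%. Fxyd4 had its highest value in S1, where these 3 sums were below their S2 level. The part of these cells in the levels of Fxyd5, Fxyd1 and Atp1b2 was not tested. In such bulk samples more cells of a type and more RNA per cell cannot be told apart.

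**Figure D3:**
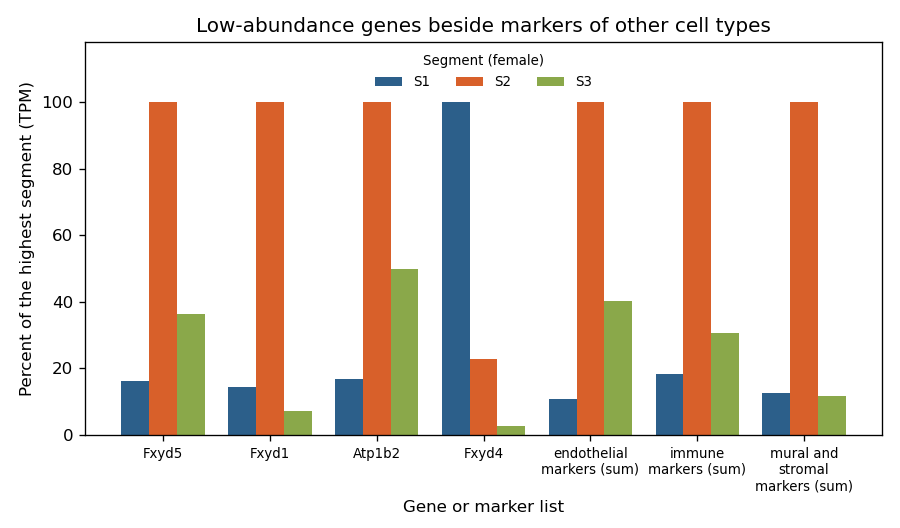
Level in S1, S2 and S3 as a percent of the highest segment, for Fxyd5, Fxyd1, Atp1b2 and Fxyd4 and for the summed TPM of 9 endothelial, 10 immune and 9 mural and stromal markers. Bars start at 0 and each is 1 deposited value or a sum of such values. Fxyd5, Fxyd1, Atp1b2 and the 3 marker sums peak in S2, and Fxyd4 peaks in S1.

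The labelled tissue was checked against its markers. The 10 proximal tubule markers, among them Lrp2 (143.0, 228.3 and 259.1 TPM from S1 to S3) and Hnf4a (112.2, 117.2 and 136.3 TPM), were each at 1 TPM or more in every segment. Of these 10, 5 were higher by 2-fold in S1 than in S3 and 1 was lower, against 10.5% and 13.1% of all genes compared. The steepest, Slc34a1, was at 10241.1 TPM in S1, 2226.8 TPM in S2 and 17.0 TPM in S3. The 6 S1 markers summed to 9265.4, 269.8 and 49.5 TPM in that order. The 5 S2 markers summed to 309.1, 1201.1 and 4.5 TPM, where the S1 value was mostly Slc22a8 (297.3, 349.1 and 0.7 TPM). The 7 S3 markers summed to 75.2, 79490.7 and 126081.9 TPM, mostly Kap (56.5, 64254.7 and 95736.3 TPM). All 7 were lower by 2-fold in S1 than in S3, but only 1 was lower in S2 than in S3. Of the markers of other nephron parts, which also carry the pump, Slc12a1 of the thick limb was at most 1.0 TPM, and the 5 distal convoluted tubule markers summed to between 1.4 and 3.6 TPM. The 5 intercalated cell markers summed to between 0.4 and 1.7 TPM. The thick limb list as a whole summed to 164.2, 332.8 and 332.8 TPM, mostly Cldn10 (154.9, 292.0 and 283.9 TPM), with Umod at 0.2, 21.1 and 29.1 TPM. The thin limb list, at 21.8, 283.4 and 1041.0 TPM, was nearly all Cryab. The 4 podocyte markers summed to 2.2, 16.0 and 4.5 TPM and the 5 red blood cell markers to at most 0.9 TPM. The part of these other cells in the levels of the pump genes was not tested.

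By the count of genes 2-fold or more apart, 1 of the 6 pump genes compared was higher in S1 than in S2 (Fxyd4) and 2 were lower (Fxyd5 and Fxyd1). Of all genes compared, 24.3% were called in this contrast, 6.62% as higher in S1 and 17.7% as lower. The median difference was 0.03 for the 6 and -0.18 for all genes. Between S1 and S3, 2 were higher in S1 (Fxyd4 and Fxyd2) and 0 lower. Of all genes, 23.6% were called here, 10.5% as higher in S1 and 13.1% as lower. The medians were 0.09 and -0.01. Between S2 and S3, 3 were higher in S2 (Fxyd4, Fxyd5 and Fxyd1) and 0 lower. Of all genes, 11.0% were called here, 8.74% as higher in S2 and 2.24% as lower. The medians were 0.79 and 0.12. Each call was of an FXYD gene, and the 2 beta genes compared had none. Fxyd1 passed the 1 TPM minimum only through its S2 value, so its count is not independent of that minimum.

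The share of higher genes among the calls depended on the scaling. Between S1 and S2 it was 27.2% as deposited and 46.8% with quantile normalization, where the median of all genes was 0.11 in place of -0.18. A median-of-ratios scaling from all genes above 0 turned the majority, with 69.3% higher in S1 and a median of 0.48. Between S2 and S3 it was 79.6% as deposited and 61.6% with quantile normalization, where the median was -0.06. The median-of-ratios scaling from all genes above 0 gave 43% and a median of -0.34, so the majority was then lower in S2.

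**Figure D4:**
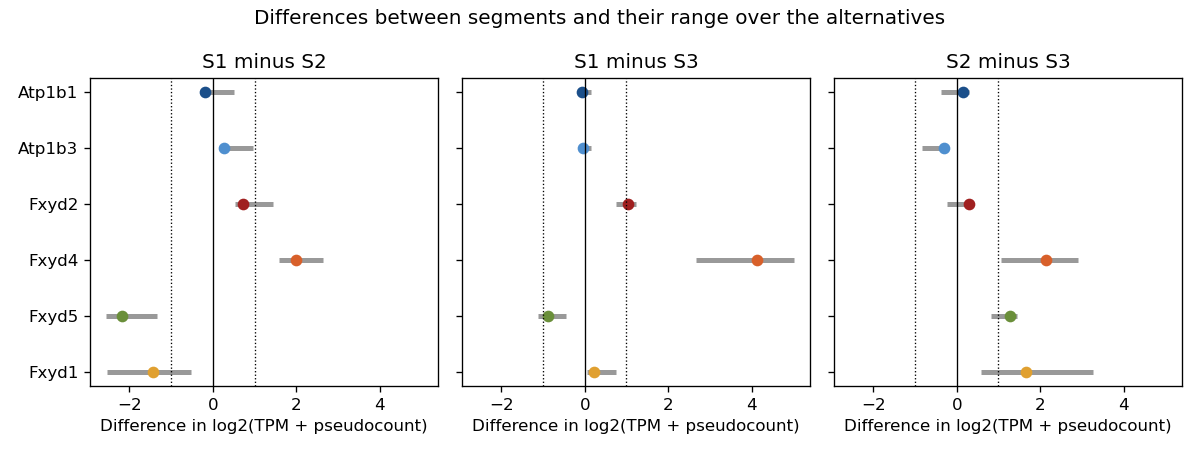
Difference in log2(TPM + pseudocount) between segments for the 6 genes compared: S1 minus S2, S1 minus S3 and S2 minus S3. Points are the values as reported (pseudocount 1), grey bars the range over the alternatives (8 for each gene but Fxyd1, which has 7), and dotted lines the 2-fold threshold. Atp1b1 and Atp1b3 stay inside the threshold in the 3 panels, and Fxyd4 lies beyond it in each.

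The pump does not work alone, and lists of its anchors, regulators and neighbours were read in the same columns. Of 20 genes for anchors and regulators of the pump, 15 were compared. Past 2-fold, S1 was above S2 for 2 genes and below it for 5, S1 was above S3 for 3 and below it for 5, and S2 was above S3 for 0 and below it for 1. Over all genes compared, S1 was above S2 for 6.62% and below it for 17.7%, and above S3 for 10.5% and below it for 13.1%. S2 was above S3 for 8.74% and below it for 2.24%. The 3 genes higher in S1 belonged to the membrane skeleton, to which the pump is tethered. Ank3, which encodes ankyrin-G, was at 118.4 TPM in S1, 43.9 TPM in S2 and 36.2 TPM in S3. Add3, which encodes gamma-adducin, was at 63.4, 19.0 and 13.0 TPM along the tubule. Add1, which encodes alpha-adducin, was at 73.7, 39.4 and 27.9 TPM and passed 2-fold against S3 only.

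Among the genes lower by 2-fold in S1 than in S2 were 3 kinases. Of these, only Sik1 was also lower by 2-fold in S1 than in S3. Sgk1, a hormone-induced kinase that raises sodium transport, was highest in S2, with 51.3 TPM in S1, 121.9 TPM in S2 and 73.9 TPM in S3. Nedd4l, a ubiquitin ligase that removes sodium channels from the membrane, was at 22.0, 52.1 and 82.1 TPM from S1 to S3. Sik1, a salt-inducible kinase, was at 5.4, 14.6 and 15.1 TPM, and Wnk1, a kinase that controls ion cotransport, at 7.1, 16.2 and 14.5 TPM. Ppp1r1b, a phosphatase inhibitor that acts downstream of dopamine (DARPP-32), was at 0.1 TPM in S1, 3.1 TPM in S2 and 11.4 TPM in S3. Pdzk1, a scaffold of the brush border, had the highest level in the list, with 1482.4, 1075.0 and 1164.7 TPM.

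Potassium that the pump brings in leaves again through basolateral channels. Of 5 such channel genes, 3 were compared. Against S2, 1 was higher in S1 by 2-fold, and against S3 all 3 were. Of all genes compared, 6.62% were higher in S1 than in S2 by 2-fold, and 10.5% were higher in S1 than in S3. Kcnj16, which encodes Kir5.1, was at 409.2 TPM in S1, 128.1 TPM in S2 and 98.6 TPM in S3, and Kcnj15, which encodes Kir4.2, at 326.8, 207.1 and 125.5 TPM. Kcnk5, which encodes TASK2, was at 55.1, 29.8 and 26.2 TPM. In the deposited values all 3 were ordered S1, S2, S3 from high to low, as Fxyd2 and Fxyd4 were. For Fxyd2, with an S2 minus S3 of 0.29, the order of S2 and S3 depended on the scaling. The channel genes were not read under the alternatives. Their S2 minus S3 was 0.37 for Kcnj16, 0.72 for Kcnj15 and 0.18 for Kcnk5. Kcnj13 was at most 0.5 TPM and Kcnj10 at most 0.1 TPM.

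Of 10 related ion pumps of the same enzyme class, 4 were compared. Atp2a2, the calcium pump of the endoplasmic reticulum, was at 119.1 TPM in S1, 58.9 TPM in S2 and 62.6 TPM in S3, and was the 1 gene past 2-fold in favour of S1 over S2. Atp2a3, a calcium pump known from blood and endothelial cells, was at 0.1, 1.5 and 0.3 TPM and was the 1 gene lower, having reached the 1 TPM minimum through S2 alone. None of the 4 passed 2-fold between S1 and S3 or between S2 and S3. Of all genes compared, 6.62% were higher by 2-fold in S1 than in S2 and 17.7% were lower. The proton-potassium pump genes Atp12a and Atp4a and the beta subunit gene Atp4b, the closest relatives of the sodium pump in the list, were at 0.2 TPM or less in each segment.

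The genes whose profile over the 3 segments was most like that of Atp1b1, by root mean square difference of centred log2 values, were Ccdc163 (10.4, 12.1 and 10.8 TPM), Strn4 (29.8, 34.1 and 31.1 TPM) and Fbxw2 (32.7, 37.7 and 33.7 TPM). For Fxyd2 they were Lancl1 (58.4, 34.7 and 28.2 TPM), Sptlc2 (72.9, 43.1 and 35.2 TPM) and Gpr89 (38.0, 22.7 and 18.3 TPM). With 3 values per gene such likeness is common. Of 5507 genes that reached 10 TPM in each segment, 468 lay within 0.1 of Atp1b1 and 186 of Fxyd2.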

How the data were processed

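RNA-seq of hand-dissected proximal tubule segments from female mice was used: 19 libraries in 3 groups. Per the labels' protocols, cDNA was made with a SMARTer V4 kit (10 to 12 PCR cycles) and built into Nextera XT libraries, which were read from both ends at 50 bases. No molecular identifiers and no strand marking are named. Per the submitters' processing notes, the build was mm10, and STAR, RSEM, cutadapt, Bowtie2, Picard, SAMtools and MACS2 were named for the series. Their roles and the gene annotation are not given in the sources used here.

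As deposited by the authors, the table holds TPM, 1 value per gene and segment, to 1 decimal, with column sums of 999907 for S1, 999988 for S2 and 999911 for S3. No source used here states how libraries were combined. The table's 5 remaining value columns fit no RNA-seq group of the labels and were left out, and the 24 samples of ATAC-seq are not used here.

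With 1 value per group no test was possible and no p-value is given. Differences of log2(TPM + 1) were taken over the whole table, for the 16053 genes that reached 1 TPM in some segment, and called when at least 1 (2-fold, with exact 2-fold included). Scaling alternatives were quantile normalization over these genes and median-of-ratios scaling from genes that reached 1 TPM in each segment. Others were pseudocounts of 0.1 and 5, no filter, a filter of 5 TPM, and totals without Gpx3, Kap and the genes of mitochondrial DNA. The last, median-of-ratios scaling from all genes above 0, was added after seeing the data. The code was tested on simulated data. Python 3.11.15, pandas 2.3.3 and NumPy 2.4.6 were used. The 7 genes and all lists were chosen with earlier results of these data known. The rule for named genes took the 7 genes, the list members that were called or reached 100 TPM, and the 3 genes most like the most abundant beta and FXYD gene. Part of the genes under this rule, the catalytic subunits among them, is not reported here. Symbols came from the table, and the 7 IDs matched the reference table of names. Coordinates and promoters came from RefSeq, GRCm38.p6. Promoters were found for 5 of the 7 genes.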

Additional observations from a re-analysis of the deposited data

How the results depend on the processing

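No paired analysis was possible because each segment has 1 deposited value and no replicate columns, and no alternative without a library was run.

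The limits that matter most are the absent replicates, the unknown depth and the rounding to 1 decimal, which bears on Fxyd1 and Atp1b2.

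The 6 genes compared were read over 3 contrasts and 8 alternatives. Among the differences, 131 kept their side of the 2-fold threshold, 8 dropped below it and 2 passed it. Fxyd1 had none under a filter of 5 TPM. Taking away the filter or raising it to 5 TPM leaves each difference as it was, so part of the 131 was fixed by construction. No called difference changed its sign. The number of pump genes called between S1 and S3 was 2 as reported and 1 with quantile normalization, with median-of-ratios scaling, and when Gpx3, Kap and the genes of mitochondrial DNA were left out, each time through Fxyd2. Between S2 and S3 it was 3 as reported and 1 with a pseudocount of 5, which damps low genes by construction. Fxyd5 passed 2-fold between S1 and S3 with a pseudocount of 0.1, at -1.13. The FXYD to beta ratio became 13 in S1, 7.81 in S2 and 7.83 in S3 with quantile normalization, so the order of S2 and S3 turned and the cause was not tested. The median-of-ratios scaling from all genes above 0 was added after seeing the data. It brought Fxyd2 to 1.45 for S1 minus S2 and moved the median of all genes in that contrast to 0.48.

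Calls over all genes depended on the pseudocount and the filter. Between S1 and S2 they numbered 3902 as reported, 6078 with a pseudocount of 0.1, 1569 with 5 and 2307 with a filter of 5 TPM. Between S1 and S3 they numbered 3789, and 1919 with a pseudocount of 5. Between S2 and S3 they numbered 1762, and 3673, 455 and 881 under the same settings as in the first contrast.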
